A study of Mus musculus with 20 samples.

Results

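The subject is a module of 32 genes of cholesterol and lipid synthesis, described in pyramidal cells of the mouse subiculum, the main output field of the hippocampus. They were chosen by symbol, with the bulk fragment counts of the 4 populations and the single-well counts of these data in view, so the levels below are a description and not independent support for the choice. Of the 32, 31 were matched by gene identifier to a row of the bulk table of 37607 gene rows, and all 31 passed the filter on low counts that left 13916 genes tested. The remaining gene, Hmgcs1, was not analysed in bulk here. All 32 had a row in the single-cell table. The working name speaks of enzymes, but Insig1, Insig2, Srebf1, Srebf2 and Scap are regulators and Stard4 carries sterols.

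Bulk RNA-seq covered 4 populations of subiculum pyramidal cells named by the target of their axons, PFC, NA, RSC and VHN, with 3 libraries each. The labels give abbreviations only: PFC usually stands for prefrontal cortex, NA for nucleus accumbens and RSC for retrosplenial cortex, while VHN has no reading in the labels. Fluorescent neurons were sorted by hand out of microdissected slices, and the labels name no strain, age, sex or tracer. The libraries are called biological replicates, without a statement of how many animals each one pooled. Single subiculum pyramidal cells, with no target named, were measured on 4 plates with 384 wells, of which 11 held no count. The labels list more single-cell samples than plates, and nothing maps one to the other.

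Cholesterol is built from acetyl-CoA through mevalonate, isoprenoid pyrophosphates, squalene and lanosterol, and fatty acids are built from the same starting unit. The brain makes its own cholesterol behind the blood-brain barrier. When membrane sterol is low, SCAP escorts the SREBP precursors (products of Srebf1 and Srebf2) from the endoplasmic reticulum to the Golgi, where they are cut into active transcription factors. The INSIG proteins hold this complex back when sterol is plentiful.

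Bulk libraries held 10777273 to 20904126 gene fragments. CPM here are fragments brought to a common library size after TMM scaling (trimmed mean of M values), and FPKM are the deposited length-scaled values. The pyramidal marker list (8 genes) summed to 3529.6 to 4262 CPM in PFC, 3466 to 5155 in NA, 2716 to 3224 in RSC and 2824 to 3344 in VHN, so that every PFC and NA library lay above every RSC and VHN library. Of these 8 markers, 5 passed in PFC and NA against RSC and VHN, 4 higher and 1 lower. Slc17a7, the cortical vesicular glutamate transporter, was detected in 326 of 348 single wells. Marker lists of other cell types also varied, in part between libraries of the same population. The interneuron list (10 genes) summed to 0.693 to 3.33 CPM in PFC and 0.313 to 15.2 in NA, with Vip at 0 throughout. Replicates 1, 2 and 3 were at 5.25, 67.2 and 305 CPM in RSC and at 1.52, 3.69 and 202 CPM in VHN, so single libraries set these ranges. Mbp, a myelin gene that marks oligodendrocytes, ranged from 37.8 to 47.8 CPM in PFC, 40.9 to 71.9 in NA, 35.1 to 48.7 in RSC and 64.7 to 83.6 in VHN. The endothelial and mural list (6 genes) summed to 57.6 to 91.8 CPM in PFC, 24.0 to 51.1 in NA, 5.65 to 10.6 in RSC and 2.02 to 21.5 in VHN, carried by the mural gene Rgs5, with Cldn5 at 0 in every library. The astrocyte list (8 genes) summed to 287 to 397 CPM in PFC, 326 to 599 in NA, 146 to 405 in RSC and 72.3 to 167 in VHN, carried by the glutamate transporter Slc1a2, and the precursor and microglia lists reached at most 4.97 and 1.23 CPM. Fewer cells of a type and less RNA per cell cannot be told apart in bulk, and the part of these lists in the results was not tested unless a value is given.

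Upstream sequence is shown for 4 members, as the regions on which sterol-responsive control usually acts. Hmgcs1 is shown because it is the member whose window held the sterol regulatory motif, among the member windows searched. Cyp51, Elovl6 and Acly are shown because they had the lowest adjusted p in the 4-population test among members with an entry. Each line is the 250 bases before the annotated start, 5′ to 3′ on the gene's strand, from RefSeq on GRCm38.p6. Capitals mark TCACNCCAC, a form of the sterol regulatory element, and CCAAT, the NF-Y box, on either strand.
Hmgcs1: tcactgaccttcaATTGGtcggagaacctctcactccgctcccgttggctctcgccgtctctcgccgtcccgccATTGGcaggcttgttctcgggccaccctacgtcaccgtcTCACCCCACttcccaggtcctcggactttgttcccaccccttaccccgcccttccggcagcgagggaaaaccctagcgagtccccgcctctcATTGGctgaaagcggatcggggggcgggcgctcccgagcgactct
Cyp51: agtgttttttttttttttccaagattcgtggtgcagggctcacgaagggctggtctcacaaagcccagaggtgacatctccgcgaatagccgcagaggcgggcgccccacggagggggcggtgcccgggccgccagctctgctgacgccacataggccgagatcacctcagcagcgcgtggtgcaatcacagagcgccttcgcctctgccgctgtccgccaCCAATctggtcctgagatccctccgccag
Elovl6: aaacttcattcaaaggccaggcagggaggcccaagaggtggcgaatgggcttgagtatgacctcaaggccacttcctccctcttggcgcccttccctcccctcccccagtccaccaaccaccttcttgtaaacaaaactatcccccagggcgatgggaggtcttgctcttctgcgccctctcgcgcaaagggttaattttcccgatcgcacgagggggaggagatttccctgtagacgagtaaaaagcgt
Acly: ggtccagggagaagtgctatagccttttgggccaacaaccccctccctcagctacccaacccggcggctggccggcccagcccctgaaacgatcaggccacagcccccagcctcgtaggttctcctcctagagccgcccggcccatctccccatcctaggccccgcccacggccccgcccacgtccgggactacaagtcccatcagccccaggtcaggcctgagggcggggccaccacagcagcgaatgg
The Hmgcs1 region lies at chr13:119690101-119690350 (+), Cyp51 at chr5:4104698-4104947 (-), Elovl6 at chr3:129532136-129532385 (+) and Acly at chr11:100528001-100528250 (-). Promoters of 25 of the 32 members were matched, in 33 windows of 300 bases. TCACNCCAC was in 1 of these 33 windows (3.03%), against 1.24% of all 32851 windows of the same length. CCAAT was in 21 of 33 (63.6%), against 37.4% of all windows, and GGGCGG, the Sp1 box, was in 25 of 33 (75.8%), against 35.7%. The motifs were searched on both strands. Sites of CCAAT on opposite strands can share bases, as a pair in the Fasn window does, and such a window counts once. Several genes contribute more than 1 window, and the absence of capitals in the Elovl6 and Acly lines says only that these letters are not there.

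Of the 31 members measured in bulk, 4 differed among the populations in the 4-population test (edgeR quasi-likelihood, Benjamini-Hochberg adjusted p under 0.05 over all genes), while 8.93% of all genes did. These were Cyp51, Scd2, Elovl6 and Acly. The other 27 did not pass. Cyp51, Elovl6 and Acly were lower in PFC cells than in the other 3 populations and Scd2 was higher, so that genes of fatty acid synthesis moved in opposite directions. PFC against the other 3 called these same 4 members, against 7.90% of all genes (4.38% higher, 3.53% lower). PFC and NA against RSC and VHN called 3 members, Scd2 higher and Acly and Tm7sf2 lower, against 14.2% of all genes (7.58% higher, 6.66% lower). The contrasts share libraries, so their calls are not separate evidence.

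**Figure D1:**
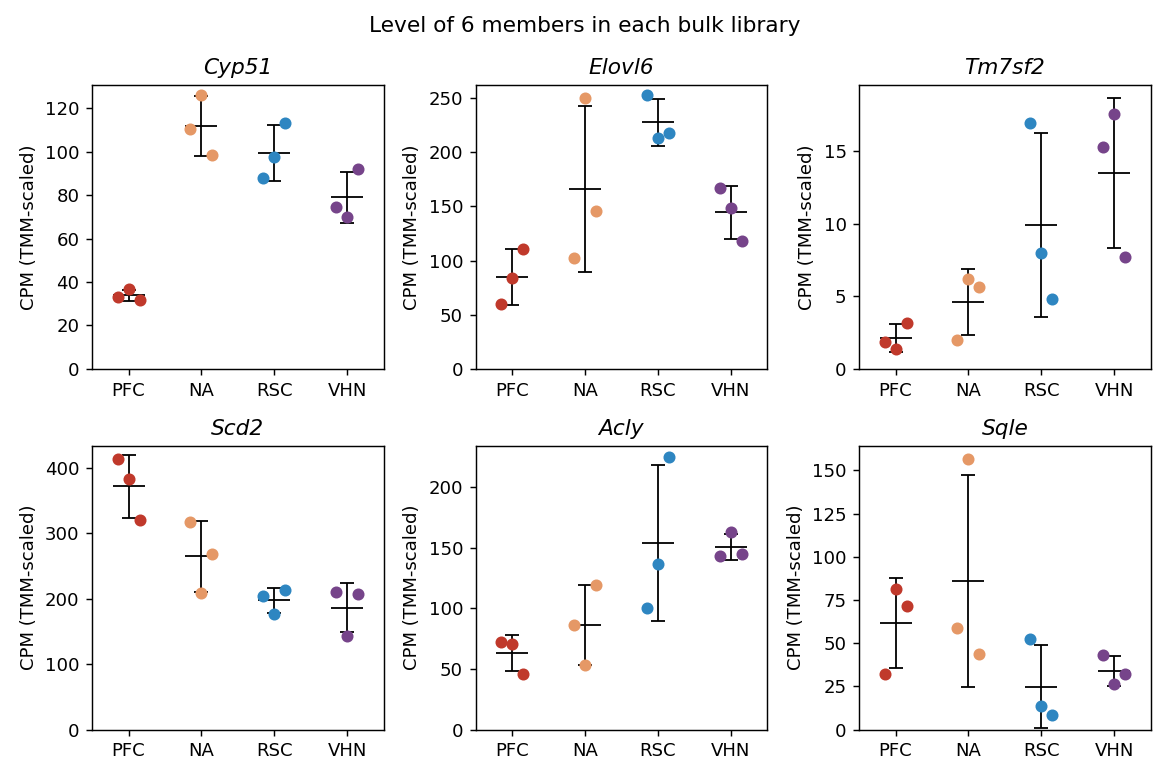
Level of 6 members in the 12 bulk libraries (y axis, TMM-scaled CPM; points are libraries, lines are the mean with SD of 3). The 3 PFC libraries are the lowest of the 12 for Cyp51 (31.7 to 36.9 CPM) and the highest for Scd2 (319 to 414 CPM); Sqle, chosen after its values were seen, spans 8.75 to 156 CPM.

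Cyp51 (ENSMUSG00000001467), lanosterol demethylase, acts on the first sterol of the pathway. It stood at 32.9, 36.9 and 31.7 CPM in PFC libraries, against 110.3, 126 and 98.4 CPM in NA, 87.7, 97.6 and 113 CPM in RSC and 74.5, 70.0 and 92.2 CPM in VHN. Every PFC library lay below every other library, and the remaining populations overlapped in part. The mean was 33.8 ± 2.70 CPM in PFC (SD, n = 3) and 96.7 ± 18.1 CPM in the other 9 libraries, a level 2.86 times that of PFC. The log2 fold change was -1.50 (SE 0.24, edgeR adjusted p = 0.00101), and lower values in PFC passed in all 3 pairwise contrasts. NA against PFC gave 1.72 (SE 0.27, edgeR adjusted p = 0.0109), a contrast in which 0.438% of all genes passed. NA against the other 3 gave 0.79 (SE 0.21, edgeR adjusted p = 0.0429), against 3.55% of all genes. That call of NA was lost in 11 of 12 fits that left out 1 library, all but the one without NA replicate 3 (edgeR adjusted p from 0.0493 to 0.157 over the 12). It was also lost without normalization, without a filter, with the replicate block, without the libraries with Gad2 and with FPKM in all 3 forms. Without the 3 libraries with Gad2 above 20 CPM (RSC 2, RSC 3 and VHN 3, at 43.3, 177 and 91.9 CPM), the difference of PFC from the other 3 was -1.41 (edgeR adjusted p = 0.0234). Only RSC replicate 1 was left for RSC in that fit, which has fewer libraries to measure the spread. The 3 pairwise calls of Cyp51 were lost there, and the part of interneuron RNA was not tested. PFC against VHN was also lost without VHN replicate 3 alone (edgeR adjusted p = 0.0676), and with FPKM only PFC against RSC without a filter passed (limma adjusted p = 0.0346). Rgs5, the mural marker, was highest in the PFC libraries, at 83.5, 54.5 and 91.8 CPM. The other genes of its list did not follow it. Flt1 reached 3.12 CPM in PFC replicate 2 and 0 in PFC replicates 1 and 3, Pecam1, Pdgfrb and Vtn stayed at 0.26 CPM or less, and Cldn5 was at 0. The part of Rgs5-expressing cells in the Cyp51 difference was not tested. A stretch of 166 exonic bases is shared with Akap9 on the opposite strand, and strand-aware counting is not stated. In all, exons of 11 of the 32 members overlap another gene of GENCODE M21, 8 of them on the opposite strand, which leaves their values uncertain to that extent.

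No other sterol step passed in PFC against the other 3. Tm7sf2 (ENSMUSG00000024799), a sterol reductase that acts on the product of Cyp51, was at 1.82, 1.39 and 3.19 CPM in PFC and 1.99, 6.22 and 5.63 CPM in NA, against 17.0, 8.0 and 4.78 CPM in RSC and 15.3, 17.6 and 7.70 CPM in VHN. NA replicates 2 and 3 lay above RSC replicate 3, so the groups overlapped. The log2 fold change of PFC and NA against RSC and VHN was -1.88 (SE 0.61, edgeR adjusted p = 0.0478). The call was lost when any library but NA replicate 2 or PFC replicate 3 was left out, with adjusted p between 0.0515 and 0.146 in those 10 edgeR fits. Tm7sf2 shares 532 exonic bases with Vps51 on the same strand, so its fragments cannot be assigned with certainty.

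Squalene epoxidase, Sqle, the oxygen-dependent step before lanosterol, was at 32.1, 81.1 and 71.6 CPM in PFC and 58.5, 156 and 43.5 CPM in NA, against 52.3, 13.6 and 8.75 CPM in RSC and 43.2, 26.5 and 32.3 CPM in VHN. Its log2 fold change of 1.32 (SE 0.44) did not pass (edgeR adjusted p = 0.0524), and the libraries overlapped. Fdft1, squalene synthase, ranged from 43.0 to 125 CPM, and Lss, lanosterol synthase, from 1.16 to 47.2 CPM. Msmo1, Nsdhl and Hsd17b7, which together strip the methyl groups from the sterol ring, ranged from 5.54 to 44.6, 6.51 to 47.8 and 10.6 to 55.9 CPM. Ebp, the sterol isomerase, reached from 0 to 16.0 CPM, Sc5d, the sterol desaturase, from 4.70 to 60.2 CPM, and the reductase Dhcr7 from 0.643 to 28.4 CPM. Of the 11 sterol steps, 1 passed in PFC against the other 3 (9.09%, against 7.90% of all genes), with 8 log2 fold changes above 0 and 3 below.

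Mevalonate-step genes were low in bulk and none of the 5 measured passed in either contrast with edgeR (at an unadjusted p under 0.05, 1 in PFC against the other 3 and 0 in PFC and NA against RSC and VHN). Mvk, mevalonate kinase, ranged from 0.110 to 10.83 CPM and Pmvk, the next kinase, from 0.429 to 33.0 CPM. Mvd, mevalonate pyrophosphate decarboxylase, was at 4.77, 10.5 and 7.97 CPM in PFC, against 0 to 2.85 CPM in the other 9 libraries. Its libraries did not overlap, yet its log2 fold change of 3.24 (SE 0.99) missed the threshold (edgeR adjusted p = 0.0545), and the gene is named after its values were seen. Idi1, isopentenyl pyrophosphate isomerase, ranged from 0.429 to 8.41 CPM and Fdps, farnesyl pyrophosphate synthase, from 5.36 to 26.7 CPM. Fdps shares 1124 exonic bases with Gm43738 on the same strand, so its bulk fragments cannot be assigned with certainty. Over all single wells, Fdps and Pmvk stood at 95.0 and 93.0 CPM, and Mvk, Mvd and Idi1 at 11.4, 9.25 and 1.15 CPM. Why Fdps and Pmvk were lower in bulk was not tested. In PFC against the other 3, 4 members had PFC libraries that did not overlap the rest (Cyp51 lower, Scd2, Mvd and Srebf2 higher), against 5.32% of all genes. None of the 31 separated PFC and NA from RSC and VHN in this way, against 7.52% of all genes.

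**Figure D2:**
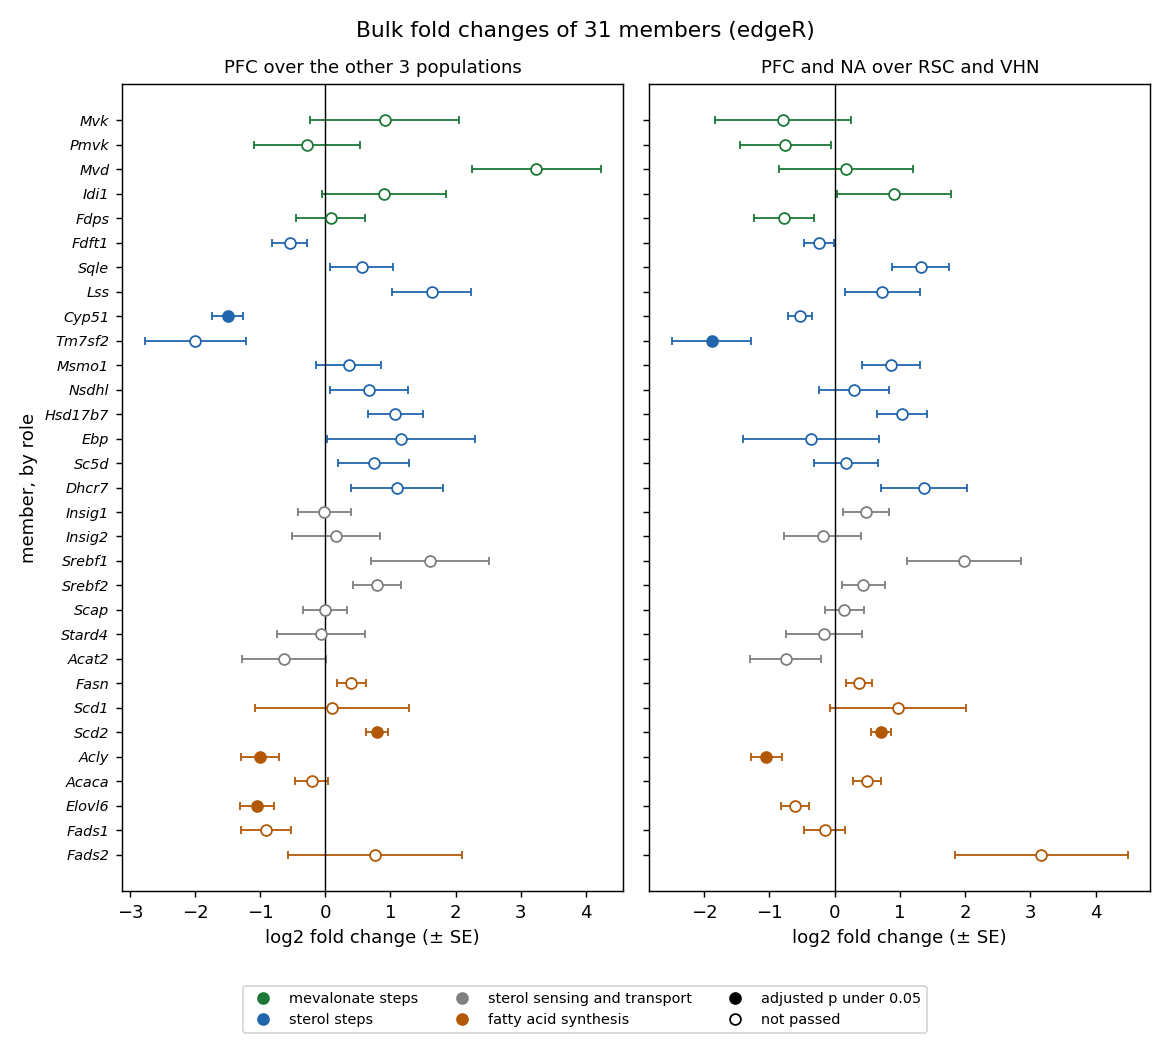
Log2 fold change with SE of the 31 members from the edgeR fit, by role, for PFC over the other 3 populations (left) and PFC and NA over RSC and VHN (right); filled points passed an adjusted p of 0.05. Of the 31 members, 4 passed on the left and 3 on the right, and Cyp51 has the lowest passing change on the left, -1.50.

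Fatty acid synthesis held 3 of the 4 members that passed the 4-population test, with opposite directions within it. Scd2 (ENSMUSG00000025203), the main stearoyl-CoA desaturase of mouse brain, was at 414, 382 and 319 CPM in PFC and 317, 208 and 269 CPM in NA, against 204, 177 and 213 CPM in RSC and 210.0, 143 and 207 CPM in VHN. All PFC libraries lay above all others, while NA replicate 2 fell inside the range of RSC and VHN. The mean was 318 ± 74.4 CPM in PFC and NA and 192 ± 27.5 CPM in RSC and VHN (SD over 6 libraries), 1.66 times as high. The log2 fold change was 0.71 (SE 0.15, edgeR adjusted p = 0.00432), and in PFC against the other 3 it was 0.80 (SE 0.17, edgeR adjusted p = 0.00663). Without the 3 libraries with Gad2 these were 0.74 and 0.80, at edgeR adjusted p = 0.0822 and 0.0551. Slc1a2, the leading astrocyte-list gene, was also higher in PFC and NA (log2 fold change 1.10, SE 0.27, edgeR adjusted p = 0.01), and its part was not tested. It was the 1 gene that passed of 5 tested on that list. Slc1a3, Aqp4 and Fgfr3 had positive changes that did not pass, and Aldoc had -0.55 (SE 0.75). Gfap, Aldh1l1 and Gja1 reached at most 0.062, 0.311 and 0.574 CPM. Scd1, a paralog of Scd2, stayed between 0 and 13.4 CPM, and how reads shared between the paralogs were assigned is not stated.

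Acly (ENSMUSG00000020917), ATP citrate lyase, makes cytosolic acetyl-CoA for both sterols and fatty acids. It was at 72.5, 70.4 and 45.9 CPM in PFC and 86.5, 53.4 and 119.7 CPM in NA, against 100.5, 136 and 225 CPM in RSC and 143, 163 and 145 CPM in VHN. NA replicate 3 lay above RSC replicate 1, and the other 5 PFC and NA libraries lay below all RSC and VHN libraries. The mean was 74.7 ± 26.3 CPM in PFC and NA and 152 ± 41.3 CPM in RSC and VHN (SD over 6 libraries), so the level in RSC and VHN was 2.04 times as high. The log2 fold change was -1.04 (SE 0.24, edgeR adjusted p = 0.00684), and it kept its call with any library left out. RSC replicate 3, the highest for Acly, was also the library with the most Gad2. Without the 3 libraries with Gad2 the difference was -0.74 (edgeR adjusted p = 0.23). PFC against the other 3 gave -1.0 (SE 0.29, edgeR adjusted p = 0.0429), a call lost when any library but NA replicate 2 or RSC replicate 1 was left out.

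Elovl6 (ENSMUSG00000041220), the elongase that turns palmitate into stearate, was at 59.7, 84.3 and 111 CPM in PFC, against 102, 250.6 and 146 CPM in NA, 253, 213 and 218 CPM in RSC and 167, 149 and 118 CPM in VHN. PFC replicate 3 overlapped NA replicate 1, and the other PFC libraries lay below all others. The mean was 85.0 ± 25.7 CPM in PFC (SD, n = 3) and 179.5 ± 55.9 CPM in the other 9 libraries, so that the other populations were 2.11 times as high. The log2 fold change was -1.05 (SE 0.27, edgeR adjusted p = 0.0222). Without PFC replicate 1 it was -0.85 (edgeR adjusted p = 0.114), without PFC replicate 2 it was -1.05 (edgeR adjusted p = 0.0822), and without the 3 libraries with Gad2 it was -1.16 (edgeR adjusted p = 0.0566).

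The enzymes between Acly and Elovl6 did not pass. Acaca, acetyl-CoA carboxylase, ranged from 54.1 to 69.7 CPM in PFC and 93.5 to 129 CPM in NA. It ranged from 51.5 to 68.8 CPM in RSC and 43.0 to 73.9 CPM in VHN. Its ranges are given by population after its values were seen. Fasn, fatty acid synthase, ranged from 68.9 to 183 CPM over the 12 libraries. Fads1 and Fads2, desaturases of polyunsaturated fatty acids, ranged from 17.8 to 98.5 and from 0 to 31.3 CPM, both with their highest value in NA replicate 2.

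The 5 regulators did not pass in the 4-population test or in either contrast. Insig1 was at 42.1, 15.4 and 21.3 CPM in PFC and 24.8, 54.2 and 32.4 CPM in NA, against 24.5, 19.1 and 28.3 CPM in RSC and 24.7, 16.9 and 21.2 CPM in VHN. Insig2 was at 51.8, 64.5 and 2.06 CPM in PFC and 53.7, 5.57 and 28.8 CPM in NA, against 40.5, 40.5 and 45.7 CPM in RSC and 45.7, 16.9 and 43.5 CPM in VHN. Both spread as widely within PFC as between populations. Srebf1, whose product acts mainly on fatty acid genes, was at 3.55, 47.3 and 0.75 CPM in PFC and 22.7, 14.0 and 1.88 CPM in NA, against 4.56, 1.99 and 2.71 CPM in RSC and 9.72, 2.08 and 1.81 CPM in VHN. Its log2 fold change of PFC and NA against RSC and VHN, 1.99, had an SE of 0.87 (edgeR adjusted p = 0.148), and PFC replicate 2 alone exceeded all others. Leaving out 1 library moved it between 0.49, without PFC replicate 2, and 2.60, without VHN replicate 1.

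Srebf2, whose product acts mainly on sterol genes, was at 79.9, 91.9 and 100.3 CPM in PFC, against 72.5, 14.8 and 73.4 CPM in NA, 49.6, 43.1 and 76.4 CPM in RSC and 54.4, 29.8 and 56.1 CPM in VHN. The PFC libraries did not overlap the others, and the log2 fold change was 0.80 (SE 0.37, edgeR adjusted p = 0.216). Scap was at 33.7, 97.7 and 83.3 CPM in PFC and 48.8, 132 and 58.9 CPM in NA, against 52.3, 57.6 and 60.9 CPM in RSC and 61.8, 95.7 and 87.1 CPM in VHN. Its log2 fold change of PFC and NA against RSC and VHN was 0.15 (SE 0.29). The PFC libraries, the lowest for Cyp51, were thus the highest for Srebf2, and they overlapped the others for Insig1 and Scap.

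Stard4, which moves cholesterol between membranes, ranged from 1.61 to 34.6 CPM. Acat2, the thiolase that joins acetyl-CoA units at the start of the mevalonate route, ranged from 1.39 to 23.8 CPM. Neither passed.

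Over all 31 members, the median log2 fold change of PFC and NA against RSC and VHN was 0.18, with 18 above 0 and 13 below, while the median of all genes was 0.01. In PFC against the other 3 the median was 0.36 for members and 0.04 for all genes. Summed over the members, the level was 1429 ± 139 CPM in PFC, 1521 ± 41.2 CPM in NA, 1379 ± 94.0 CPM in RSC, and in VHN 1289 ± 81.6 CPM (SD over 3 libraries). RSC against VHN called no member and no gene at all with edgeR (0.00%), where 1 member and 721 genes had an unadjusted p under 0.05 and DESeq2 called 59 genes and no member. RSC and VHN, each against the other 3, called no member (4.95% and 1.07% of all genes), with 6 and 4 members at an unadjusted p under 0.05. DESeq2 called 1 member in RSC and 0 in VHN. PFC against RSC called the same 4 members as the 4-population test and PFC against VHN called Cyp51, Scd2 and Acly, against 9.76% and 5.09% of all genes. At least 1 of the 6 pairwise contrasts called 4 members, against 12.3% of all genes.

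**Figure D3:**
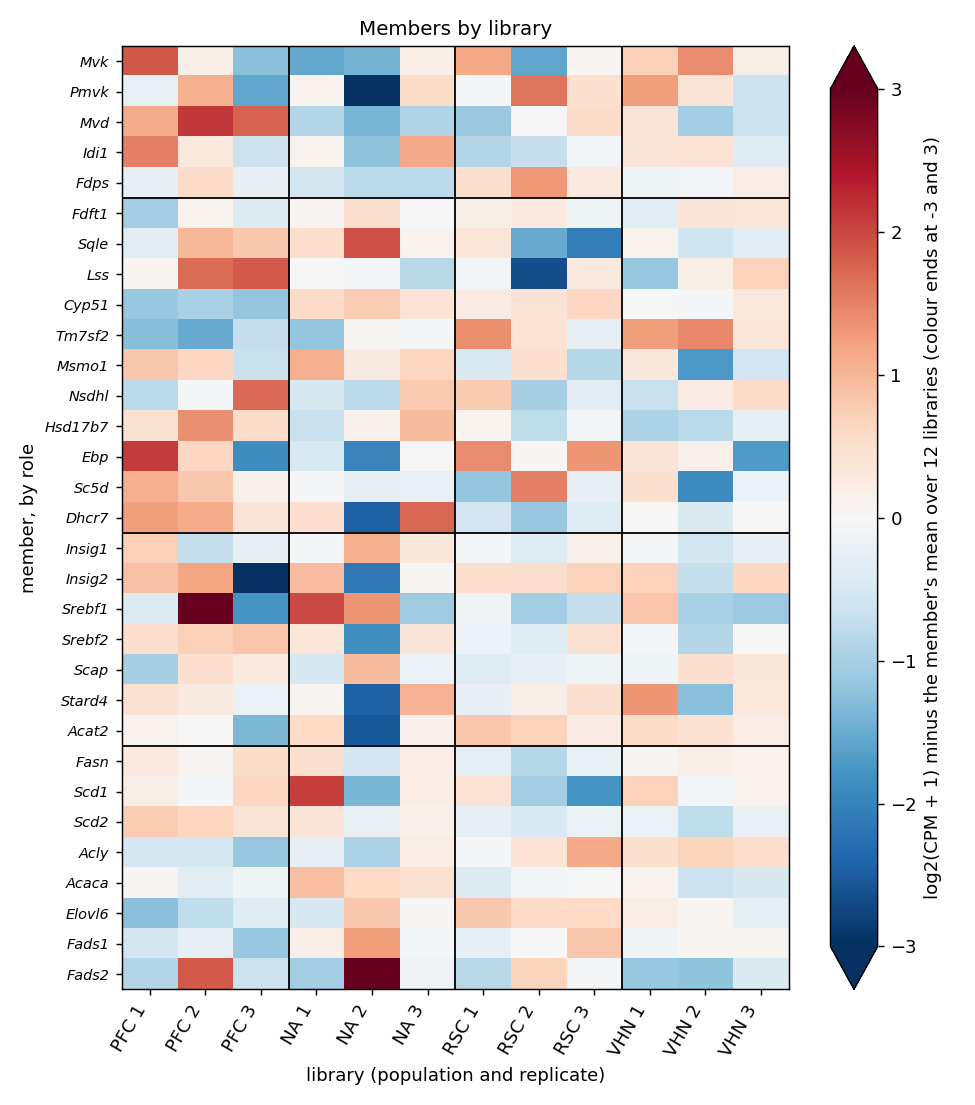
Level of the 31 members in each bulk library, as log2(CPM + 1) minus the member's mean over the 12 libraries (columns, populations in the order PFC, NA, RSC, VHN; rows by role). Cyp51 is evenly low in the 3 PFC libraries, whereas most other rows vary as much inside a population, and NA replicate 2 holds the lowest value of 9 members and the highest of 7.

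The spread within populations set what could be told apart. The median coefficient of variation within a population was 0.469 for members and 0.434 for all genes. NA replicate 2 had the lowest level of 9 members (29.0%, against 24.95% of all genes) and the highest of 7 (22.6%, against 18.9%). Of the members, 8 averaged under 10 CPM and 4 had 0 fragments in at least 1 library, as did 22.0% of all genes. Cyp51 had the smallest median coefficient of variation of the 31 members, 0.126.

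Levels can be compared between genes per length. The members with the highest mean FPKM over the 12 libraries were Acly at 55.2 ± 49.7 FPKM (SD, n = 12), Scd2 at 45.8 ± 15.4, Fdft1 at 31.8 ± 8.15 and Scap at 28.3 ± 14.7 FPKM, with SDs that overlap. The order of Acly and Scd2 was not the same in every population. Scd2 averaged 67.1 ± 8.87 FPKM in PFC, 47.3 ± 9.55 in NA, 35.2 ± 3.36 in RSC and, in VHN, 33.5 ± 6.67 FPKM (SD over 3 libraries). Acly averaged 21.4 ± 7.42 FPKM in PFC, 42.9 ± 29.1 in NA, 96.8 ± 82.4 in RSC and 59.8 ± 36.5 in VHN. Without RSC replicate 3, where Acly stood at 186 FPKM, the means were 43.3 FPKM for Acly and 46.5 FPKM for Scd2 over 11 libraries. Elovl6, Fasn and Cyp51 followed at 25.6, 25.0 and 24.3 FPKM, and Fads2, Mvd and Scd1 came last at 2.46, 1.5 and 0.672 FPKM.

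Genes around these pathways were read from lists made with earlier results of these data known. Of 20 tested cholesterol-handling genes, 2 were higher in PFC and NA than in RSC and VHN and none lower (10%, against 14.2% of all genes). Abca1, the cholesterol exporter, reached 11.7, 13.0 and 12.9 CPM in PFC and 5.96, 0.643 and 2.72 CPM in NA, against 0.0483 to 4.03 CPM in RSC and VHN (log2 fold change 3.42, SE 0.91, edgeR adjusted p = 0.0183). Abcg4, a neuronal sterol exporter, gave 0.79 (SE 0.24, edgeR adjusted p = 0.0394). The PFC libraries also held the most Rgs5, and its part in the Abca1 difference was not tested. The other genes of the endothelial and mural list stayed at 3.12 CPM or less in every library. Cyp46a1, the neuronal enzyme that clears cholesterol, was at 77.1 ± 17.5 CPM in PFC, 59.1 ± 17.8 CPM in NA, 76.4 ± 4.97 CPM in RSC, and in VHN 79.1 ± 22.1 CPM (SD over 3 libraries) and did not pass.

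Of 27 other fatty acid and glycerolipid genes tested, 4 were higher and 1 was lower in PFC and NA (18.5%, against 14.2% of all genes). Tecr, the reductase that closes each elongation cycle, led with 1.36 (SE 0.21, edgeR adjusted p = 0.000297). Elovl4, an elongase of very long chains, gave 0.82 (SE 0.19, edgeR adjusted p = 0.00852), and Hacd2, the dehydratase of the same cycle, gave 0.69 (SE 0.22, edgeR adjusted p = 0.0469). Tecr, Elovl4 and Hacd2 thus were higher in PFC and NA, while the elongase Elovl6 had a log2 fold change of -0.61 there (SE 0.22, edgeR adjusted p = 0.0705). Scd3, a desaturase paralog, was lower, but at 0 to 0.124 CPM in PFC and NA against 0 to 11.8 CPM in RSC and VHN. Of 13 isoprenoid-branch genes none passed in this contrast with edgeR, with 4 at an unadjusted p under 0.05 and a median of -0.75. In PFC against the other 3, 2 of the 13 passed (15.4%, against 7.90% of all genes). These were Rabggta and Rabggtb, the subunits of the Rab prenylating enzyme, which were lower at -1.89 (SE 0.47, edgeR adjusted p = 0.0212) and -1.50 (SE 0.39, edgeR adjusted p = 0.0249). Of 9 SREBP-processing genes, 1 passed in PFC and NA against RSC and VHN (11.1%, against 14.2% of all genes). This was Fbxw7, a ubiquitin ligase subunit that marks active SREBP for breakdown, which was lower at -0.44 (SE 0.12, edgeR adjusted p = 0.0196). It was at 484, 458 and 543 CPM in PFC and at 695, 914 and 574 CPM in NA, where replicate 2 lay above all VHN libraries. PFC against the other 3 gave -0.67 (SE 0.14, edgeR adjusted p = 0.00881), against 7.90% of all genes.

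In single cells, 348 of 384 wells had 1000 or more detected genes, with a median of 112401 counts. Of the 32 members, 10 were detected in at least 50% of these wells and 5 in under 10%. Fdps was found in 89.7% of wells and Scd2 in 82.5%, whereas Scd1 was found in 2.01% and Fads2 in 1.72%. No cell type that should lack these genes was at hand as a background, and no column maps wells to the labelled samples. All wells together count as 1 sample, and no test was made. Gad1 or Gad2 was detected in 3 wells. Hmgcs1, the synthase at the entry to the mevalonate route, stood at 55.6 CPM over all wells and was found in 57.2% of them. Over the 496 pairs of members, the Spearman correlation of levels across the 348 wells had a median of 0.028 and a maximum of 0.199. All pairs share the wells and their depth, and in counts this sparse such values say little.

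Wells were then divided by neurotensin, Nts, which in bulk ranged from 10.9 to 31.6 CPM in PFC and NA and from 199 to 406 CPM in RSC and VHN. Nts-high wells had 100 CPM or more (204 wells, median 116846 counts), and the other wells had less (144 wells, median 101632 counts). The members summed to 949 CPM in Nts-high wells and 1159 CPM in other wells, a log2 ratio of -0.29 that ranged from -0.37 to -0.05 over the 4 plates. Of 25 members with 10 CPM or more in either set, 7 were higher and 18 lower in Nts-high wells, with a median log2 ratio of -0.38, against -0.02 over 8759 genes chosen in the same way. All 4 plates placed 2 of the 25 higher and 5 lower in Nts-high wells, and did so for 12.4% and 14.0% of the 8759 genes.

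**Figure D4:**
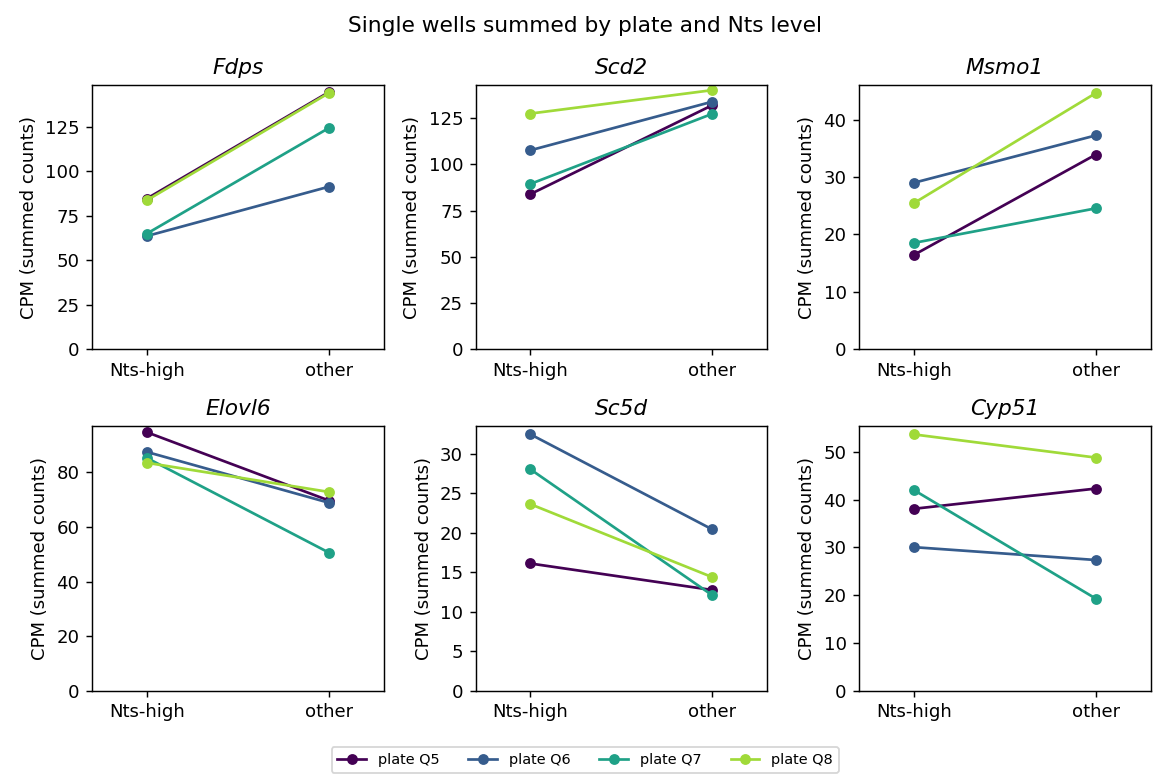
CPM of 6 members in summed counts of Nts-high and other wells, 1 line per plate (chosen after their values were seen). Fdps, Scd2 and Msmo1 were lower in Nts-high wells on all 4 plates and Elovl6 and Sc5d higher on all 4, while Cyp51 was higher on 3.

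The intervals below are exact Poisson intervals at 95% on counts summed over wells. They cover counting error only, as if every count were independent, and leave out amplification and the spread between wells. Cyp51, for example, had 1574 counts in 142 wells, so the intervals are likely too narrow. Fdps was at 75.2 CPM (71.9 to 78.7) in Nts-high wells and 129 CPM (123 to 135) in other wells. Scd2 was at 103 CPM (99.2 to 107) in Nts-high wells and 135 CPM (129 to 141) in other wells. Pmvk, Msmo1 and Insig2 were also lower in Nts-high wells on all 4 plates. Elovl6 was at 87.8 CPM (84.1 to 91.5) in Nts-high wells and 67.2 CPM (63.1 to 71.6) in other wells, and Sc5d at 24.7 CPM (22.8 to 26.7) in Nts-high wells and 14.9 CPM (13.0 to 17.0) in other wells, both higher on every plate. Cyp51 was at 41.6 CPM (39.1 to 44.3) in Nts-high wells and 37.4 CPM (34.3 to 40.7) in other wells, higher on 3 plates and lower on 1. Acly differed little, at 35.0 CPM (32.7 to 37.4) in Nts-high wells and 38.0 CPM (34.8 to 41.3) in other wells.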

How the data were processed

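Per the file headers, the bulk values are Cuffdiff tracking output, in which the authors deposited expected counts (raw fragments per gene and library, not normalized) and FPKM; the submitters' processing notes name mm9, and the aligner is not given in the sources used here. The single-cell table holds deposited counts per gene and well, and whether molecular identifiers were used is not given in the sources used here. Fractional values made up 8.51% of the expected counts above 0, and all were rounded. The 92 rows that are not mouse genes held 0 fragments and were left out, 178 entries with status FAIL were kept, and 0 sample columns were left unmapped. Libraries are numbered from 0 in the bulk table but from 1 in the labels; that the numbers run in parallel is assumed in naming them and affects no group.

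Genes were filtered with filterByExpr (smallest count 10), scaled by TMM and fitted with edgeR 4.0.16 (quasi-likelihood, 12 libraries, 4 populations, 8 residual degrees of freedom, no covariate, biological coefficient of variation 0.736). Adjusted p-values are Benjamini-Hochberg over all 13916 genes, with a threshold of 0.05. The SE of a log2 fold change is its size divided by the square root of the F statistic. The fit was tested on simulated data, where it called most genes of the larger fold and none of the smaller. The simulated counts had less spread than these data, so the share recovered there may be too high for them. A gene that did not pass may still differ. Alternatives used DESeq2 1.42.0, and limma 3.58.1 on log2(FPKM + 1) or log2(FPKM + 0.1). Symbols came from a later annotation by identifier. The depth of 10777273 to 20904126 fragments and 3 libraries per population limit the precision, and p-values measure the spread between these libraries.

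The members and lists were chosen with earlier results of these data known. Library values are given for members past the threshold in the 4-population test or in PFC and NA against RSC and VHN, and for 5 regulators. Up to 4 called genes of each other list are named, and others are marked as chosen after their values were seen. Wells had at least 1000 detected genes, no doublet caller was run, and their counts were summed. The sum of the oligodendrocyte marker list is not reported here.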

Additional observations from a re-analysis of the deposited data

How the results depend on the processing

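Cyp51 in PFC against the other 3 kept its direction and its call under all alternatives run, with log2 fold changes from -1.57 to -1.02. The numbers of members called moved more. In the 4-population test, 4 became 7 with DESeq2, 1 without the 3 libraries with Gad2 above 20 CPM, 2 with log2(FPKM + 1) or unfiltered FPKM and 0 with log2(FPKM + 0.1). In PFC and NA against RSC and VHN, 3 became 5 without normalization, 6 without a filter, 7 with DESeq2, 0 without the libraries with Gad2 and 1 with FPKM at either pseudocount. Over all genes, 1982 of 13916 became 1959, 2439 of 21094, 2723 and 746 of 16007 in the same order. With FPKM it became 1472 and 1344 of 12540 at pseudocounts 1 and 0.1. In PFC against the other 3, 4 became 1 without the libraries with Gad2 and 2 with FPKM at either pseudocount. Over all genes, 1100 of 13916 became 478 of 16007 without the libraries with Gad2, and 575 and 398 of 12540 with FPKM at pseudocounts 1 and 0.1. In NA against the other 3, 1 became 2 with DESeq2 size factors or DESeq2, 3 without a filter and 0 without normalization, without the libraries with Gad2 and with FPKM in all 3 forms. Over all genes, 494 of 13916 became 521, 1094, 1373 of 21094, 369 and 232 of 16007 in the same order. With FPKM it became 54 and 50 of 12540 at pseudocounts 1 and 0.1, and 138 of 21114 unfiltered. In RSC against the other 3, 0 became 1 without normalization or with DESeq2 and 2 without a filter. Over all genes, 689 of 13916 became 700, 1305 and 1290 of 21094 in the same order. For at least 1 of the 6 pairwise contrasts, 4 became 12 with DESeq2, 0 without the libraries with Gad2 and 1 with log2(FPKM + 0.1). PFC against RSC, 1 of these pairs, called 1358 of all 13916 genes, which became 2128, 214 of 16007 and 824 of 12540 in the same order. Over all genes the 4-population test called 1243 of 13916 genes with edgeR, 2408 with DESeq2 and 2709 of 21094 without a filter. It called 446 of 16007 without the libraries with Gad2, 686 and 523 of 12540 with FPKM at pseudocounts 1 and 0.1, and 821 of 21114 with unfiltered FPKM. Fewer samples enter the fits without the libraries with Gad2, where RSC keeps only 1 library. The cause of the other shifts was not tested.

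With each library left out in turn, the numbers called ranged from 1 to 4 (4-population test; 1 without PFC replicate 1 or 2, 2 without RSC replicate 2, RSC replicate 3 or VHN replicate 2), 2 to 6 (PFC and NA against RSC and VHN; 6 without NA replicate 2), 2 to 5 (PFC; 2 without PFC replicate 1 or 2), 0 to 1 (NA), 0 to 2 (RSC), 0 to 0 (VHN) and 3 to 5 (pairwise). Insig2 ranged from -0.57 to 0.10 and turned positive without NA replicate 2 (0.063) or PFC replicate 3 (0.098). Scap ranged from -0.13 to 0.32 and turned negative without NA replicate 2 (-0.13). Srebf1 passed with no filter alone (adjusted p = 0.044, edgeR). With plates left out, the summed single-cell level ranged from 985 to 1041 CPM and the Nts-high log2 ratio from -0.34 to -0.22.

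Same-numbered libraries did not deviate together (correlations -0.026 to 0.038, against -0.030 to 0.035 for other pairs), so no pairing by number was seen. Such correlations cannot exclude that same-numbered libraries share animals or handling, since the order of the numbers is itself assumed and the spread is wide. With the replicate block, 3 members were called in the 4-population test, 2 in PFC and NA against RSC and VHN, 3 in PFC and 0 in NA. Over all 13916 genes it called 1098, 1803, 963 and 388 in the same order. A split of wells on Fn1 was not run. Low members are limited by depth: 9 had under 10 fragments in at least 1 library.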
